A study of Mus musculus with 3 samples.

Results

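The genes that encode the Wnt ligands, their Frizzled receptors and the co-receptors Lrp5 and Lrp6 were described in sorted epithelial cells of mouse back skin. Members were found by gene symbol in the deposited table, and all 31 were present among its 44548 genes: 19 ligands, 10 Frizzled receptors and 2 Lrp co-receptors. The cells came from the back skin of wild-type (WT) mice at postnatal day 56, when follicles were in second telogen, the resting phase of the hair cycle. They carried integrin alpha6 and lacked Sca1, and polyadenylated RNA of 3 samples of this 1 group was sequenced, so no contrast between groups could be fitted. The labels speak of collection as a pair of biological replicates, and which of the 3 libraries share a collection was not stated, so the spread between them may be partly technical. The labels name an antibody to integrin alpha6 and none to Sca1.

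Wnt proteins are secreted, lipid-modified ligands that act over short distances. At the cell surface they bind the cysteine-rich domain of a Frizzled receptor, a protein that spans the membrane several times. Where Lrp5 or Lrp6 joins the complex, beta-catenin is spared from breakdown and activates genes together with Tcf and Lef factors, while other ligand and receptor pairs act on cell polarity and calcium without beta-catenin. In the hair follicle, Wnt signalling through beta-catenin is known for starting the growth phase, and resting stem cells are known for holding it low.

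Library depth ranged from 29283936 to 39198620 counts. All 8 fixed markers of hair follicle stem cells and all 6 of basal keratinocytes were detected, with summed levels of 21740 to 27882 and 23307 to 33329 TPM (a level per unit of gene length, with the same total in each library). Markers of suprabasal epidermis summed to 3316 to 7181 TPM with 6 of 6 detected, those of the upper follicle to 3192 to 4715 TPM with 6 of 6 detected, and those of the sebaceous gland to 107 to 143 TPM with 4 of 6 detected. Dermal markers summed to 46.1 to 104 TPM with 3 of 8 detected: Crabp1, Col1a1 and Col1a2, with means of 44.9, 17.4 and 16.6 TPM. Dcn and Col3a1 had means of 0.274 and 0.0273 TPM. The dermal receptors Pdgfra and Pdgfrb had means of 0.238 and 0.00789 TPM and Lum had 0 counts. Melanocyte markers summed to 13.3 to 15.7 TPM with 3 of 6 detected, Schwann cell markers to 12.6 to 14.3 TPM with 4 of 4 detected, and immune markers to 8.91 to 15.4 TPM with 1 of 6 detected. Endothelial markers summed to 0.239 to 0.373 TPM with 0 of 5 detected, and Cdh5, Cldn5 and Emcn had 0 counts. The part of these other cells in the levels of Wnt genes was not tested, and in sorted bulk samples fewer cells of a type and less RNA per cell cannot be told apart.

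Of the 31 genes, 21 had a mean level of at least 1 TPM, the limit used here for detection. This share of 67.7% stands beside 30.7% of all genes and 54.9% of the 21410 protein-coding genes. Every receptor gene passed, with 10 of 10 Frizzled genes and 2 of 2 Lrp genes, but only 9 of 19 ligand genes did. The summed level of the Frizzled genes was 664, 1025 and 804 TPM in replicates 1, 2 and 3, a mean of 831 ± 182 TPM (SD, n = 3). That of the ligand genes was 158, 208 and 174 TPM, a mean of 180.2 ± 25.4 TPM (SD, n = 3). The ligand sum lay below the Frizzled sum in each of the 3 libraries.

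**Figure D1:**
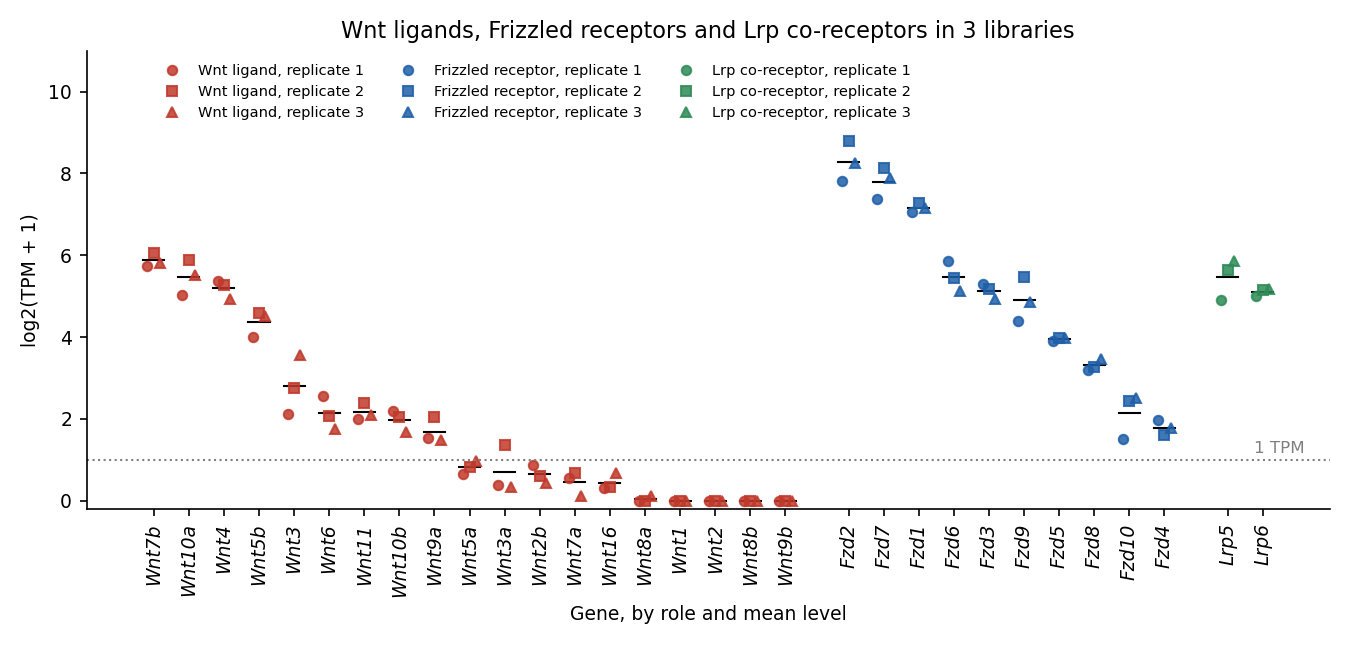
Level of each gene as log2(TPM + 1) on the vertical axis, with 1 point per library and a bar at the mean of the 3 libraries. Genes are ordered by mean TPM within ligands, Frizzled receptors and Lrp co-receptors. The dotted line marks 1 TPM. The 10 Frizzled genes lie above it by their means, from Fzd2 at 323 TPM to Fzd4 at 2.45 TPM, as do 9 of the 19 ligand genes.

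Wnt7b, Wnt10a, Wnt4 and Wnt5b held 87.9%, 88.9% and 87.0% of the summed ligand TPM in replicates 1 to 3. Wnt7b (ENSMUSG00000022382, GRCm38 chromosome 15, 85535437 to 85582473, minus strand), a ligand known in epithelia for signalling through beta-catenin, had 52.4, 66.0 and 55.3 TPM from 2494, 3988 and 3762 counts. It was the highest ligand in all 3 libraries, with a mean of 57.9 ± 7.16 TPM (SD, n = 3) and 32.2% ± 0.807 of the ligand sum. Wnt10a (ENSMUSG00000026167, chromosome 1, 74791516 to 74804179, plus strand), a ligand whose loss in humans is known to affect hair, teeth and sweat glands, had 31.7, 58.1 and 44.8 TPM. Its lowest value was in replicate 1, below that of Wnt4 there and above Wnt4 in the other libraries. Wnt4 (ENSMUSG00000036856, chromosome 4, 137277489 to 137299726, plus strand), a ligand known from kidney and gonad development, had 40.2, 37.7 and 29.6 TPM. Wnt5b, a relative of Wnt5a usually placed among ligands that act without beta-catenin, had 14.9, 23.1 and 21.8 TPM. The ranges of Wnt7b and Wnt10a overlapped, as did those of Wnt10a and Wnt4, so these neighbours in the order were not separated by range. Within libraries Wnt7b lay above Wnt10a in all 3, by 0.40 ± 0.28 on the log2(TPM + 1) scale (SD, n = 3), while Wnt10a and Wnt4 changed order. Wnt4 lay above Wnt5b in every library without overlap, by 0.83 ± 0.49 on the log2(TPM + 1) scale (SD, n = 3), which understates differences of low genes. Fbxl14, a protein-coding gene that overlaps Wnt5b on the opposite strand, had 759, 1226 and 972 counts, and since the strand setting of the counting was not stated, the counts of Wnt5b are uncertain to that extent.

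**Figure D2:**
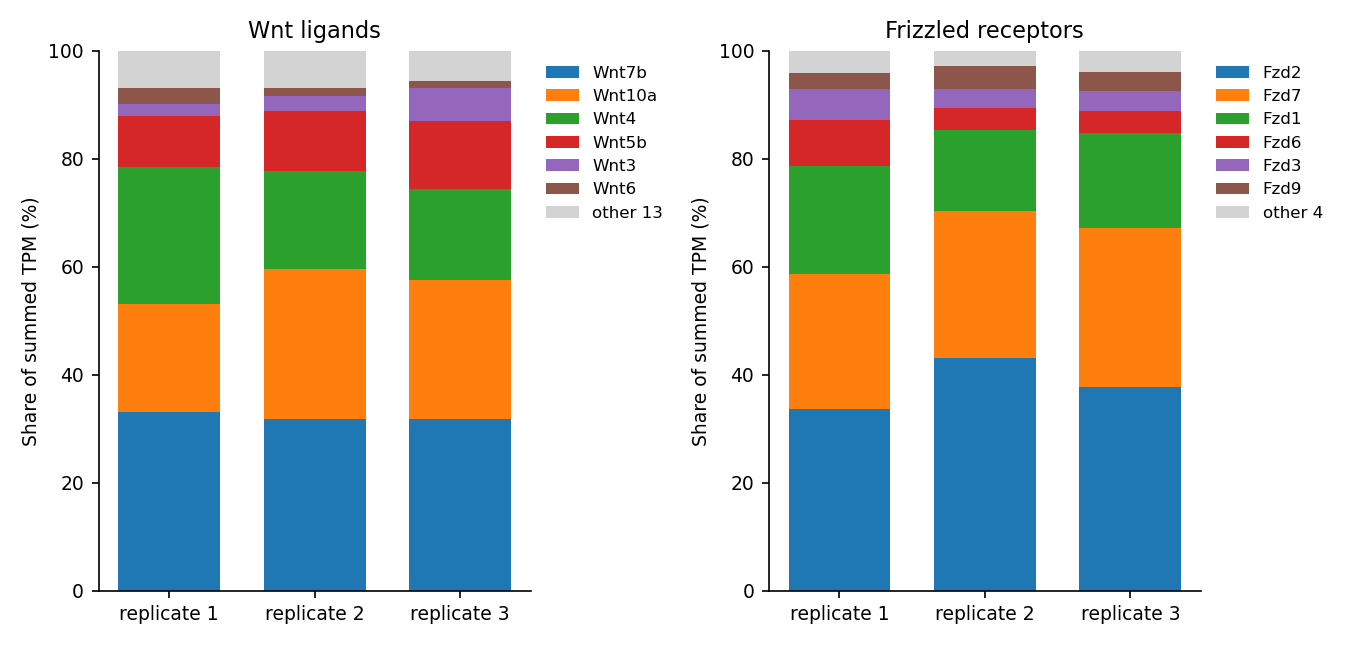
Share of the summed TPM of the 19 ligand genes (left) and of the 10 Frizzled genes (right), in percent on the vertical axis, for each of the 3 libraries. Colours mark the 6 genes with the highest means and grey the rest of the family. Wnt7b holds 32.2% and Fzd2 38.1% on average, and 3 Frizzled genes hold 82.9% of their family's sum.

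A lower tier of ligands had means between 2 and 7 TPM. Wnt3, a beta-catenin ligand of early axis and limb formation, had 3.38, 5.75 and 10.7 TPM, a mean of 6.62 ± 3.75 TPM (SD, n = 3), the largest relative range of the detected members at 3.18 times. Of the 6 suprabasal markers, 3 had their libraries in the same order as Wnt3: Krt1, with 275, 427 and 604 TPM, Krt10, with 1181, 1588 and 2910 TPM, and Lor, with 164, 1112 and 1476 TPM. The other 3 did not: Ivl had 28.4, 15.7 and 24.5 TPM, Krtdap 1243, 908 and 1613 TPM, and Sbsn 425, 425 and 555 TPM. In other marker lists too, some genes had the order of Wnt3 and others did not. Among those with it were Cd34, with 472, 552 and 581 TPM, Trp63, with 259, 273 and 287 TPM, and Col1a1, with 7.36, 21.6 and 23.3 TPM. The part of suprabasal or other cells in the Wnt3 level was not tested. Wnt6, the close neighbour of Wnt10a on chromosome 1, had 4.91, 3.23 and 2.37 TPM, highest in replicate 1. Wnt11, a ligand known for cell movements in development, had 2.98, 4.20 and 3.28 TPM. Wnt10b, a relative of Wnt10a known from hair follicle growth, had 3.54, 3.16 and 2.22 TPM, and Wnt9a, known from joint formation, had 1.87, 3.16 and 1.77 TPM. From Wnt3 down to Wnt9a all 4 neighbouring pairs overlapped in range, so their order is not fixed by these libraries. Wnt5b lay above Wnt3 without overlap, by 1.55 ± 0.51 on the log2(TPM + 1) scale.

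The other 10 ligand genes stayed below a mean of 1 TPM. Wnt5a, the best known ligand of the branch without beta-catenin, had 0.569, 0.756 and 0.970 TPM from 48, 81 and 117 counts. Wnt3a, the ligand most used to activate beta-catenin in culture, had 0.302, 1.56 and 0.258 TPM from 9, 59 and 11 counts, so it passed 1 TPM in replicate 2 alone. Wnt2b had 0.839, 0.522 and 0.355 TPM, Wnt7a had 0.468, 0.599 and 0.0818 TPM, and Wnt16 had 0.234, 0.251 and 0.595 TPM. Wnt8a had 0, 0 and 2 counts. Wnt1, Wnt2, Wnt8b and Wnt9b had 0 counts in all 3 libraries. A count of 0 allows at most about 3 counts per library. At that limit Wnt1 could have had up to 0.117, 0.0921 and 0.0818 TPM and Wnt9b up to 0.0616, 0.0485 and 0.0431 TPM. These limits cover counting error only.

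Among the receptors, Fzd2, Fzd7 and Fzd1 were the 3 highest genes, in that order, in each library. They form 1 structural branch of the family and held 78.6%, 85.3% and 84.7% of the summed Frizzled TPM. Fzd2 (ENSMUSG00000050288, chromosome 11, 102604396 to 102608058, plus strand) had 223, 442 and 303 TPM from 8820, 22145 and 17116 counts. With a mean of 323 ± 110 TPM (SD, n = 3) it was the highest of the 31 genes and lay above 97.5% of the 13663 genes detected. Fzd7 (ENSMUSG00000041075, chromosome 1, 59482424 to 59486955, plus strand), known as a receptor of stem cells in other epithelia, had 165, 280.2 and 237 TPM, and Fzd1 had 133, 153 and 141 TPM. Fzd2 exceeded Fzd7 in all 3 libraries by 0.48 ± 0.16 on the log2(TPM + 1) scale, but their ranges overlapped, because the lowest Fzd2 value, in replicate 1, was below the highest of Fzd7. Fzd7 lay above Fzd1 without overlap. How reads shared by these related genes were counted was not stated.

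After Fzd1 the levels stepped down by 1.69 ± 0.42 on the log2(TPM + 1) scale. Fzd6 and Fzd3, the receptors known for aligning hairs and axons through planar cell polarity, had 56.6, 42.5 and 33.6 TPM and 38.4, 34.9 and 29.5 TPM. Both were highest in replicate 1 and lowest in replicate 3. Fzd9, a receptor with known roles in bone and brain, had 20.1, 43.3 and 28.1 TPM, and its range overlapped that of Fzd3. Fzd5 had 13.9, 14.6 and 14.7 TPM, the smallest relative range of the detected members at 1.05 times. Its nearest relative Fzd8 had 8.21, 8.71 and 9.96 TPM, below Fzd5 in every library without overlap. Fzd10 had 1.83, 4.45 and 4.71 TPM, and Fzd4, the receptor of the vascular ligand norrin, had 2.91, 2.04 and 2.40 TPM. These last receptors overlapped, and Fzd10 was the lower of them in replicate 1.

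Of the co-receptors, Lrp5 had 29.0, 48.6 and 56.6 TPM and Lrp6 had 31.1, 34.4 and 35.4 TPM. Lrp5 was the higher in replicates 2 and 3 and Lrp6 in replicate 1, so the mean difference of 0.35 ± 0.40 on the log2(TPM + 1) scale did not exceed its spread. Across the ordered lists, 7 of 18 neighbouring pairs had ranges that did not overlap. For each of these 7 pairs the two-sided exact sign-flip permutation test gave p = 0.25, the smallest p that 3 libraries allow. Separate ranges make all differences of a pair the same sign, so this p was fixed for them. The same test also gave 0.25 for overlapping pairs: Wnt7b and Wnt10a, Wnt10b and Wnt9a, Fzd2 and Fzd7, and Fzd6 and Fzd3. It therefore does not set the 7 pairs apart.

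Fewer members than genes at large were highest in replicate 1. Of the 21 detected members, 6 were highest in replicate 1 and 14 were lowest there, while 59.6% of all detected genes were highest in replicate 1 and 3421 of the 13663 were lowest there. The direction of this difference was the same after other scalings: with TMM factors from edgeR, 3 members and 42.4% of all detected genes were highest in replicate 1, and with TPM rescaled to the upper quartile 3 members and 45.8%. Fzd2, Fzd7, Fzd9, Fzd10, Wnt10a and Lrp5 were among the members lowest in replicate 1. No test was run on this difference.

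The authors' deposited table also holds an H3K27me3 value per gene, a whole number for a histone mark laid down by Polycomb complexes and associated with gene repression. Its unit, its source cells and the peak calling were not stated, and 5 members share their value with a neighbouring gene. A value above 0 stood in the authors' deposited table for 14 of the 31 members, against 8.06% of all genes and 11.2% of protein-coding genes. The members split by role. A value above 0 was held by 13 of 19 ligand genes, 1 of 10 Frizzled genes (Fzd10) and 0 of 2 Lrp genes. Of the 14 members with a value, 5 were detected (35.7%), against 17.3% of the 2398 protein-coding genes with a value. Of the 17 members with a value of 0, 16 were detected (94.1%), against 59.7% of protein-coding genes with a value of 0, and the exception was Wnt8a.

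The highest ligand, Wnt7b, was among the marked genes: the authors' deposited table gives it 6071. Only 31 of the 2398 protein-coding genes with a value had a higher mean TPM. The antisense gene AU022754, which overlaps Wnt7b, shared the value and had 36, 0 and 1 counts. The other marked and detected members had values of 7184 for Wnt3, 10571 for Wnt11, 1839 for Wnt10b and 15924 for Fzd10. The largest value belonged to Wnt1, with 23048, and the next to Wnt5a, with 16008, both below 1 TPM. Wnt2, Wnt8b and Wnt9b, which had 0 counts like Wnt1, had values of 6885, 10518 and 7225. Size of the value and level were therefore not in 1 order among the members: the median of all values above 0 was 7605, and marked members lay on both sides of it with and without transcripts.

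**Figure D3:**
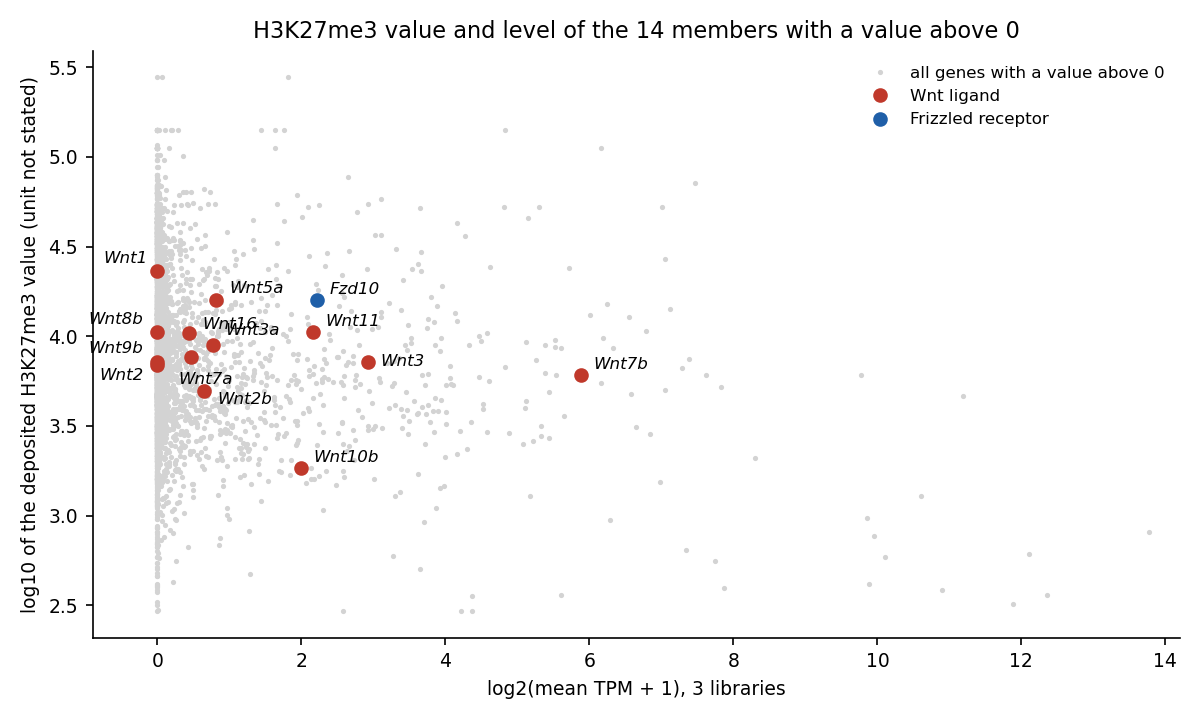
H3K27me3 value from the authors' deposited table on a log10 axis against log2(mean TPM + 1) over the 3 libraries, for all 3591 genes with a value above 0 (grey) and the 14 members among them (coloured by role). Wnt1, Wnt2, Wnt8b and Wnt9b stand at 0 TPM, and Wnt7b stands farthest to the right of the members, at 57.9 TPM.

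In the mouse genome several Wnt genes lie side by side, and 4 such pairs had no other gene between them. In 3 of the 4 pairs 1 gene was detected and its neighbour was not. Wnt3 and Wnt9b (chromosome 11, 24328 bases apart) had close H3K27me3 values of 7184 and 7225, yet Wnt3 had a mean of 6.62 TPM and Wnt9b 0 counts. Wnt10b and Wnt1 (chromosome 15, 11706 bases apart) had values of 1839 and 23048, with 2.97 TPM for Wnt10b and 0 counts for Wnt1. Wnt9a and Wnt3a (chromosome 11, 16175 bases apart) had values of 0 and 8924, with means of 2.27 and 0.707 TPM. Both are near the limit of 1 TPM, and both passed it in replicate 2, with 3.16 and 1.56 TPM. Wnt6 and Wnt10a (chromosome 1, 6193 bases apart) both had a value of 0 and were both detected, at 3.50 and 44.9 TPM.

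Promoter sequences were taken from a set of RefSeq promoters on GRCm38.p6, and the 250 bases before the start site were examined. In the set used, 21 of the 31 members were matched. The 3 pairs that differ in state are shown, with Wnt6 and Wnt5b as ligands that were detected without the mark. Each runs 5′ to 3′ on the strand of its gene, and capitals mark CpG dinucleotides, the sequence feature that mammalian Polycomb targets are known to be rich in. Wnt3 lies at chr11:103773925-103774174 (plus strand) and Wnt9b at chr11:103749822-103750071 (minus strand).
Wnt3: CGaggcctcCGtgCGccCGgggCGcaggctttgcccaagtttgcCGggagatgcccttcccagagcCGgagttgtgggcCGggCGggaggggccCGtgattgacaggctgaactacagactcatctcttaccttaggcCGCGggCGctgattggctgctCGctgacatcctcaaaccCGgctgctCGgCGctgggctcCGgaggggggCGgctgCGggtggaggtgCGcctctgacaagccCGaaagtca
Wnt9b: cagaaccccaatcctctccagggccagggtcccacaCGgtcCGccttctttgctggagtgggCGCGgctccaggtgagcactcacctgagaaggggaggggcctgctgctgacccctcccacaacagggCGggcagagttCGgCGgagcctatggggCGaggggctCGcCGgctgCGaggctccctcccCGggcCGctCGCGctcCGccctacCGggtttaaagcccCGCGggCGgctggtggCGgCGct
Wnt10b lies at chr15:98778151-98778400 (minus strand) and Wnt1 at chr15:98789607-98789856 (plus strand).
Wnt10b: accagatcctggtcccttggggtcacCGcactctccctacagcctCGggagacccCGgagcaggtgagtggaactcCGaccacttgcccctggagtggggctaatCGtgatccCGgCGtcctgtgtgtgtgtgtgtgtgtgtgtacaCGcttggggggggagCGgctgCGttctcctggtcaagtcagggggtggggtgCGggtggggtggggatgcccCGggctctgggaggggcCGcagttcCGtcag
Wnt1: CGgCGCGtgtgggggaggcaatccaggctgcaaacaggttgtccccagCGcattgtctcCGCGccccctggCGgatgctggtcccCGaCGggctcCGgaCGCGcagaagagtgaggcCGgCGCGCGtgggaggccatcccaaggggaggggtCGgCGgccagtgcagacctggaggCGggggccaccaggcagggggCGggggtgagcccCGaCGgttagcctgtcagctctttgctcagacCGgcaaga
Wnt9a lies at chr11:59306680-59306929 (plus strand) and Wnt3a at chr11:59290752-59291001 (minus strand).
Wnt9a: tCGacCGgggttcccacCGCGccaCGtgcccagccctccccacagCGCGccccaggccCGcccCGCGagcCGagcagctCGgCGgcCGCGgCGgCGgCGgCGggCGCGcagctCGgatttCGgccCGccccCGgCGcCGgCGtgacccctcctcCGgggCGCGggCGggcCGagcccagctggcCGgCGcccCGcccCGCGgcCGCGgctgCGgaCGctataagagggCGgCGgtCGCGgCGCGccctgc
Wnt3a: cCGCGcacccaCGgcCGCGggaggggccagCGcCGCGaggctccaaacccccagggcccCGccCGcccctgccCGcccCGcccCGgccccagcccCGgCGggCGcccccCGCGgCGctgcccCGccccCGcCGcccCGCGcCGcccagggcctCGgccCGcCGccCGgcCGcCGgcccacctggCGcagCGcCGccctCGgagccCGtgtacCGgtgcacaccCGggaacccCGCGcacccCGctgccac
Wnt6 lies at chr1:74771642-74771891 (plus strand) and Wnt5b at chr6:119544348-119544597 (minus strand).
Wnt6: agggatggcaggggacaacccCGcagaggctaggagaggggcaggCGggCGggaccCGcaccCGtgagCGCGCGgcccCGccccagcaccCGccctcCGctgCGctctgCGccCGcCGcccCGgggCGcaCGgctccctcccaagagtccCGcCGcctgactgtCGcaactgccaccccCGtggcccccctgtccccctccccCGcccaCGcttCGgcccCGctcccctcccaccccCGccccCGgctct
Wnt5b: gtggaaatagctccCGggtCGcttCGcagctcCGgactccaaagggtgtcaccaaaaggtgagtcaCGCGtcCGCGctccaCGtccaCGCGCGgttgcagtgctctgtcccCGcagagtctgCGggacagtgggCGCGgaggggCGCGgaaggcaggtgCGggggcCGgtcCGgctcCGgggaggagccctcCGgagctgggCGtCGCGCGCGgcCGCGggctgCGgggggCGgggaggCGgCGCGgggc

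These windows hold many CpGs whether or not the gene was marked. The Wnt3 and Wnt9b windows have 22 each, those of Wnt10b and Wnt1 have 14 and 23, and those of Wnt9a and Wnt3a have 48 and 41. Wnt6 has 28 and Wnt5b 35. Over the 21 members with a promoter in the table the median was 28 CpGs and a GC content of 72.8%, beside 11 CpGs and 56.0% over 15741 protein-coding genes. The median ratio of observed to expected CpG was 0.780 in the 12 marked members and 0.908 in the 9 members with a value of 0, beside 0.569 over all protein-coding genes. The lowest count of members was 5 CpGs at Wnt8b, which was marked and had 0 counts. The core of the Tcf and Lef site, CTTTGA on either strand, occurred in the windows of 2 of 21 members, Wnt11 and Fzd1, and in 12.9% of all protein-coding promoters. A match is a description of letters and not a site.

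The authors' deposited table gives a log2 fold change and an adjusted p-value per gene. From the names of columns not used here it was taken to compare these libraries with bulge libraries, the bulge being the stem cell region of the resting follicle, and those libraries were not analysed here. All 2552 genes with 0 counts in the 3 libraries and a fold change had a negative one, so positive values mean higher in the alpha6-positive, Sca1-negative cells. At an adjusted p under 0.05 in the authors' deposited table, 11 of the 27 members tested were higher, against 23.6% of the 20264 genes tested, and 4 were lower, against 31.9%. Of protein-coding genes 30.6% were higher and 25.8% lower. All 21 detected members were tested, and the 11 higher calls were all among them; detection was judged on the higher side of the comparison only. The share called higher was 35.1% of the 13505 detected genes tested. Of those genes 25.6% were lower, and 60.8% were called in either direction. The lower calls among detected members were Fzd3, Fzd5 and Lrp6. The median log2 fold change in the authors' deposited table was 1.06 over the 27 members and -0.36 over all genes tested.

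Ligands made up most of the higher calls. Of 15 ligands tested in the authors' deposited table, 8 were higher and 1 was lower, with a median log2 fold change of 1.59. Marker lists differed in the same table. There 6 of 6 suprabasal markers were called higher, with a median log2 fold change of 3.21, and 5 of 6 upper follicle markers, with a median of 2.51. Of 6 basal keratinocyte markers 4 were higher and 1 lower, and of 8 stem cell markers 3 were higher and 3 lower. Higher calls numbered 2 of 5 sebaceous, 1 of 6 dermal, 1 of 6 melanocyte and 1 of 4 Schwann cell markers tested. Immune and endothelial markers had 0 of 4 and 0 of 2 in the authors' deposited table. The part of any of these cell types in the ligand calls was not tested. Wnt7b had the smallest adjusted p of the ligands called higher in the authors' deposited table, 3.95e-20, with a log2 fold change of 2.77, and Wnt10a followed with 2.12 (adjusted p = 3.43e-08). The largest fold changes among called ligands in the authors' deposited table were those of Wnt10b, with 3.27 (adjusted p = 0.000463), and Wnt6, with 2.96 (adjusted p = 0.00187), both at low levels. Wnt3, Wnt11, Wnt5b and Wnt4 had log2 fold changes of 1.68, 1.59, 1.48 and 1.07 in the authors' deposited table. Wnt2b was the lower call, with -1.84 (adjusted p = 0.00471) in the authors' deposited table, and rested on 38, 30 and 23 counts here. Wnt5a, Wnt3a, Wnt7a, Wnt8b, Wnt9a and Wnt16 were tested without a call.

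The calls of the Frizzled receptors went both ways, at shares near those of protein-coding genes. Of 10 tested in the authors' deposited table, 3 were higher (30%) and 2 lower (20%), with a median log2 fold change of -0.15. Of protein-coding genes tested, 30.6% were higher and 25.8% lower. Fzd9 had 2.59 (adjusted p = 6.83e-09), Fzd10 had 2.00 (adjusted p = 0.00405) and Fzd2 had 1.23 (adjusted p = 0.000463) in the authors' deposited table. The lower calls in the authors' deposited table were Fzd3, with -2.09 (adjusted p = 5.39e-26), and Fzd5, with -0.56 (adjusted p = 0.0314). Fzd1 and Fzd7, the close relatives of Fzd2, each had -0.38 in the authors' deposited table and were not called. Lrp6 was lower, with -1.24 (adjusted p = 5.42e-07), while Lrp5 had 0.42 (adjusted p = 0.272) in the authors' deposited table. The difference between Lrp5 and Lrp6, like that between Fzd2 and its relatives, was not tested.

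All 5 members that were both marked and detected (Wnt3, Wnt7b, Wnt10b, Wnt11 and Fzd10) were among the higher calls of the authors' deposited table, where 31.2% of the 446 marked and detected genes tested were higher. Detection was judged only in the libraries on the higher side of that comparison, so a gene at a low level, such as Wnt10b or Fzd10, could pass the limit through the group where it was high, and nothing is read from this count. The authors' score grows with the mark, the fold change and the strength of its call. By it Wnt7b ranked 11 of 20274 scored genes in the authors' deposited table. Fzd10 ranked 43, Wnt11 ranked 82, Wnt3 ranked 110 and Wnt10b ranked 133 in the authors' deposited table. Wnt7a and Wnt3a ranked 145 and 170 with adjusted p-values of 0.122 and 0.160 in the authors' deposited table, and their means here were below 1 TPM.

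The deposited fold change moved with the base composition of transcripts, and Wnt genes are GC-rich. Detected genes were divided into 4 equal classes by the GC content of the longest GENCODE transcript. From the lowest to the highest class, 10.2%, 23.2%, 42.6% and 64.6% of 3371 genes each were higher in the authors' deposited table, and 50.6%, 32.6%, 15.7% and 3.62% were lower. The highest class, from a GC content of 54.4%, held 12 of the 21 detected members, of which 9 were called higher and 0 lower. Of the 7 detected ligands in that class 6 were higher. Of the 9 detected members in the lower classes 2 were higher (Wnt3 and Wnt10b) and 3 lower (Fzd3, Fzd5 and Lrp6). Wnt10b, at 51.9% GC and a log2 fold change of 3.27, and Wnt3, at 52.6% and 1.68, lay above the median of 0.59 of their class. Fzd1, at 55.7% GC and -0.38, lay below the median of 1.40 of the highest class.

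Gene length moved with the fold change in the opposite direction. In the class of longest genes, from 5897 bases, 13.6% were higher and 53.8% lower in the authors' deposited table, and of the 4 detected members there 0 were higher and 2 lower (Fzd5 and Lrp6). Across 13484 genes Spearman's rho with the deposited fold change was 0.54 for GC content and -0.39 for length, as a description over genes that share the same libraries. The part of base composition and length in the calls of the members was not tested. The share of members called higher in the highest GC class, 9 of 12, is near that of all genes there.

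**Figure D4:**
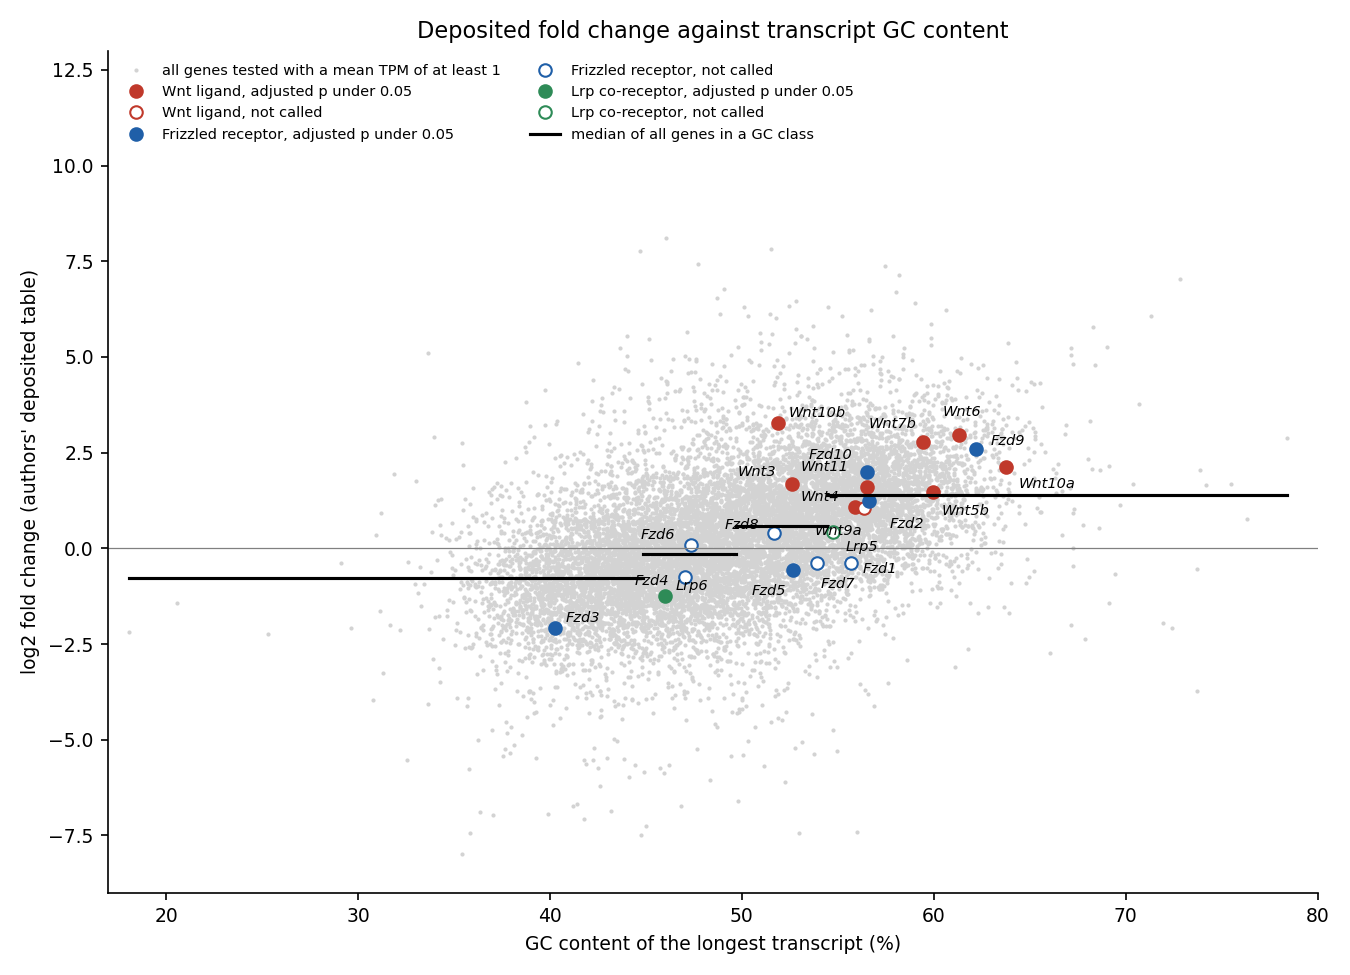
Log2 fold change from the authors' deposited table (vertical axis) against the GC content of the longest transcript in percent (horizontal axis). Grey points are genes tested with a mean TPM of at least 1, black bars are their medians in the 4 classes of GC content, and coloured points are the 21 detected members, filled where the adjusted p was under 0.05. The 4 medians rise from -0.77 to 1.40, and 9 of the 12 members in the highest class are called higher.

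The other genes of the pathway were read from 8 fixed lists holding 82 different genes, of which 63 were detected. Of these, 71 were tested in the authors' deposited table, 20 were higher and 17 lower, with a median log2 fold change of -0.04. These shares lie near the 30.6% higher and 25.8% lower of all protein-coding genes tested, which are the background for the counts of each list. All 4 genes of the list of ligand maturation and release were detected, and the list also holds enzymes that act against Wnt proteins. Highest was Trabd2b, a membrane protease that cuts Wnt proteins, with 111 ± 7.56 TPM (SD, n = 3). Wls, the carrier that takes Wnt proteins to the surface, had 56.5 ± 4.72 TPM (SD, n = 3). Porcn, the enzyme that attaches their lipid, had 17.8 ± 1.14 TPM (SD, n = 3). Notum, which removes that lipid, was the 1 higher call of the list, with a log2 fold change of 4.02 (adjusted p = 0.000524) in the authors' deposited table, and had 1.89, 2.27 and 2.07 TPM.

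Of the 9 genes of the R-spondin, Lgr and receptor turnover list 6 were detected, with 0 higher and 3 lower of 7 tested in the authors' deposited table. The R-spondin receptors Lgr6, Lgr4 and Lgr5 led with 123 ± 7.66, 97.4 ± 18.2 and 90.1 ± 5.04 TPM (SD, n = 3). The lower call with the largest change was Znrf3, a ubiquitin ligase that removes Frizzled proteins from the surface, with -2.47 (adjusted p = 1.15e-27) in the authors' deposited table. Lgr5 had -1.47 (adjusted p = 5.64e-12) in the authors' deposited table.

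Antagonists reached the highest levels of the pathway. Of 17 genes 8 were detected and 5 had 0 counts in all libraries. Dkk3, a Dickkopf relative, had 679 ± 157 TPM, Sfrp1, which binds Wnt proteins outside the cell, 628 ± 224 TPM, and Sostdc1, which binds Lrp co-receptors, 511 ± 56.5 TPM (SD, n = 3). Each of these means exceeded that of every ligand and Frizzled gene. Of 11 antagonists tested in the authors' deposited table, 5 were higher and 2 lower, with the largest changes at Dkkl1, 3.33 (adjusted p = 8.95e-11), and Apcdd1, 3.01 (adjusted p = 1.13e-21). The 2 lower calls in the authors' deposited table were Sfrp1, with -0.997 (adjusted p = 0.00416), and Sostdc1, with -0.772 (adjusted p = 0.00232). Dkk3 had -0.604 (adjusted p = 0.0559) in the authors' deposited table and was not called.

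Among 14 other receptors and co-receptors 9 were detected, with 3 higher and 2 lower of 12 tested in the authors' deposited table. Ryk, a Wnt receptor with an inactive kinase domain, had 157 ± 28.6 TPM, Gpc4, a glypican, 115 ± 28.6 TPM, and Ptk7, a co-receptor of the polarity branch, 103 ± 25.5 TPM (SD, n = 3). Ptk7 and Ror2, a receptor of Wnt5a, had log2 fold changes of 1.91 (adjusted p = 8.12e-09) and 1.40 (adjusted p = 0.00456) in the authors' deposited table. Of 9 planar cell polarity genes 8 were detected, with 1 higher and 4 lower in the authors' deposited table. Daam1, Prickle2 and Celsr1 led with 57.1 ± 3.82, 47.1 ± 9.79 and 39.2 ± 8.42 TPM (SD, n = 3). The largest changes of that list in the authors' deposited table were Celsr3, with -3.50 (adjusted p = 9.00e-05) at 5, 9 and 1 counts here, and Daam1, with -1.57 (adjusted p = 9.70e-16).

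Inside the cell, all 14 genes of Dishevelled and the destruction complex and all 10 nuclear effectors were detected. Ctnnb1, which encodes beta-catenin, had 345 ± 29.3 TPM, with Csnk1a1 at 92.0 ± 6.98 TPM and Csnk1d at 75.2 ± 6.85 TPM (SD, n = 3). Of these 14, 6 were higher and 3 lower in the authors' deposited table. The largest changes there were Gsk3b, a kinase of the destruction complex, with -2.46 (adjusted p = 1.90e-30), and Dvl1, a Dishevelled gene, with 2.41 (adjusted p = 4.95e-16), in the authors' deposited table. The nuclear effectors had 3 higher and 3 lower calls in the authors' deposited table, the largest being Tcf7l2 with -2.82 (adjusted p = 4.64e-50) and Pygo2 with 2.77 (adjusted p = 2.53e-16). Bcl9l, Pygo2 and Cby1 had the highest levels of that list, with 72.2 ± 12.1, 63.4 ± 4.48 and 47.5 ± 5.26 TPM (SD, n = 3).

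Of 13 widely used target genes 11 were detected, with 2 higher and 2 lower of 11 tested in the authors' deposited table. Myc, Lgr5 and Ccnd1 led with 135 ± 26.4, 90.1 ± 5.04 and 51.1 ± 11.4 TPM (SD, n = 3). The higher calls were Notum and Nkd1, the latter with 0.83 (adjusted p = 0.0350), and the lower ones Znrf3 and Lgr5, in the authors' deposited table. All of these genes share the composition of the libraries described above, and the part of GC content and length in their calls was not tested.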

How the data were processed

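RNA of 3 samples of 1 group was read from 1 table of 44625 entries. Per the file headers, the values deposited by the authors are gene counts and TPM values, which counts and the deposited gene length gave again within 4.72e-06. The authors also deposited a log2 fold change, its adjusted p-value, an H3K27me3 value and a score. Per the submitters' processing notes FastQC, TopHat2, SAMtools, DESeq and DESeq2 and the builds mm10 and GRCm38 were used; the tool behind each column, the annotation and the strand setting were not given in the sources used here. Another 6 columns of per-sample values match no sample and were not used.

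Symbols turned into numbers (27) were restored by identifier, and of entries sharing a symbol that with the largest mean TPM was kept (44548 genes). Coordinates come from GENCODE M21 (44392 identifiers found). Genes with a mean of at least 1 TPM were called detected. No test across genes was run; pairs of genes were compared by range and by an exact sign-flip permutation test, with a pseudocount of 1. TMM factors came from edgeR 4.0.16. The counting routines were tested on simulated data. Members and lists were chosen with earlier results of these data known. Named genes were all members, and per pathway list the 3 with the highest mean TPM and up to 2 called genes with the largest fold change. Alternatives were another detection limit, pseudocount, scaling or p threshold, counts not divided by length and each replicate left out.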

Additional observations from a re-analysis of the deposited data

How the results depend on the processing

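The number of detected members stayed at 21 and that of detected ligands at 9 without each replicate in turn, while a limit of 5 TPM left 5 ligands. The share of the summed ligand TPM held by Wnt7b ranged from 31.7% to 32.4% without each replicate, and the Frizzled share of Fzd2 from 35.7% to 40.4%. With counts not divided by gene length, the Wnt7b share was 40.0%. Pairs of neighbours with separate ranges numbered 7 with all libraries, 14 without replicate 1, 10 without replicate 2 and 9 without replicate 3, where fewer values make overlap rarer. No difference between neighbours with separate ranges changed sign under any alternative run. A value of at least the median of values above 0 left 8 of 14 members as marked. With TPM rescaled to the upper quartile, a shift of -0.13, 0.07 and 0.08 (log2) for replicates 1 to 3, and with TMM factors, 3 members were highest in replicate 1 instead of 6. Among members in the highest of 4 classes of GC content, an alternative chosen after seeing the data, 0 were called lower and 9 higher in the authors' deposited table. The other 38 comparisons of main values with alternatives stayed within 1.5 times the value or within 1 SD. No paired analysis was possible because the samples form 1 group. Depth limits the genes with 0 counts, and the p of 3 libraries cannot go below 0.25.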

Other observations

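The H3K27me3 value was also read for the 82 other genes of the pathway, in the authors' deposited table. A value above 0 was held by 21 of them, of which 6 were detected and 5 had 0 counts in all 3 libraries. Of the 61 with a value of 0, 57 were detected. Wif1, a secreted inhibitor that binds Wnt proteins, stood apart from the other marked genes, with a value of 10716 in the authors' deposited table and 100.2, 124 and 106 TPM in replicates 1 to 3. It was chosen for mention after its values were seen, as were the next genes. Gpc3, a glypican, had 4.69, 5.78 and 5.93 TPM with a value of 13774 in the authors' deposited table, and Lef1, a nuclear effector, had 2.40, 1.37 and 1.23 TPM with a value of 13866. The marked antagonists Dkk1, Dkk2, Sost and Frzb had 0 counts, like the marked ligands Wnt1, Wnt2, Wnt8b and Wnt9b.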
